A study of Arabidopsis thaliana with 18 samples.

Results

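The response of the ethylene-insensitive Arabidopsis thaliana line etr1-1 to a spray of GA4, a bioactive gibberellin, was measured 1 h after spraying against a spray of water alone. The comparison rests on 6 of the 18 ATH1 arrays of the series, chosen by genotype, time and spray as the labels give them. Water and GA4 each had 3 arrays, numbered 1 to 3 in the source names. All plants were 14 days old and were harvested whole, and the GA4 was dissolved in water; its dose is not stated in the labels. The line etr1-1 is in the Col background and carries a dominant allele of the ethylene receptor gene ETR1, so a GA4 response in it is one measured in plants with impaired ethylene perception. Col-0, the wild type, had the same 2 sprays at 1 h on 6 further arrays. The other 6 arrays of the series are single ones at 0 h (water), 30 min (GA4) and 3 h (GA4) in each genotype. Separate growth of the replicates is not stated in the labels, and p-values therefore describe only how far these arrays scatter, part of which may be technical.

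Gibberellins bind GID1 receptors, and the bound receptor brings DELLA proteins, which restrain growth, to an F-box protein that marks them for degradation. Genes that DELLA proteins keep high then lose that support, and genes for cell wall loosening are among those known to follow gibberellin. Ethylene receptors act the other way round from most receptors: they repress the pathway until ethylene binds, and the protein made from etr1-1 does not bind it. Ethylene is known to stabilise DELLA proteins in seedlings, so the 2 hormones meet at the same growth repressors.

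No probe set passed the test for a change with GA4 in etr1-1 at 1 h. Of 15922 probe sets tested, 0 were higher and 0 lower at an adjusted p of 0.05 (0% in either direction; limma, Benjamini-Hochberg), and the smallest adjusted p was 1. At an unadjusted p under 0.05 there were 290 probe sets (1.82%), of which 147 were higher (0.923%) and 143 lower (0.898%). A block for the replicate number left 0 passing, with a smallest adjusted p of 0.877, while 763 had an unadjusted p under 0.05 (4.79%), 387 of them higher (2.43%) and 376 lower (2.36%). All differences below are of log2(intensity + 16), which understates the change of dim probe sets, and intensities are in the deposited units. SEs and limma p-values below are those of the fit without the block unless stated. The mean difference over the 3 pairs of arrays ran from -0.853 to 0.826 on this scale. Between the plain group means, 6 probe sets were 2-fold or more higher and 7 lower, TSC10B among the higher ones (14.3 units after water and 32.3 after GA4). A difference of 0.5 or more was seen for 22 probe sets upward and 38 downward.

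The intervals give the precision for each probe set on its own, without adjustment for their number. Probe sets removed by the filter on low values have none. On the scale with the offset, the 95% interval of the difference lay wholly within 1.5-fold for 83.3% of the probe sets and within 2-fold for 98.5%. With the replicate block these shares were 93.5% and 99.7%. In whole plants, fewer cells of a type and less RNA per cell cannot be told apart, and a change in a small tissue can be diluted. Precision is limited by how few arrays there are.

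Arrays of one replicate number were more alike than arrays of one spray. Those with the same number in the 2 sprays correlated at 0.982 in each of the 3 cases, on log2 values across probe sets. The 3 arrays of one spray correlated with each other at 0.961 to 0.978. The pairs also gave different pictures of the response. Across genes, which are not independent replicates, the within-pair differences correlated at -0.128 between pairs 1 and 2, at -0.055 between pairs 1 and 3 and at 0.195 between pairs 2 and 3 (Pearson; Spearman -0.129, -0.059 and 0.205). On the same scale pair 1 had 25 probe sets 2-fold or more higher and 20 lower, pair 2 had 8 and 22, and pair 3 had 15 and 21. Only 1 probe set was 2-fold higher in both pairs 1 and 2, 2 in both pairs 1 and 3 and 0 in both pairs 2 and 3, and none was 2-fold lower in any 2 pairs.

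**Figure D1:**
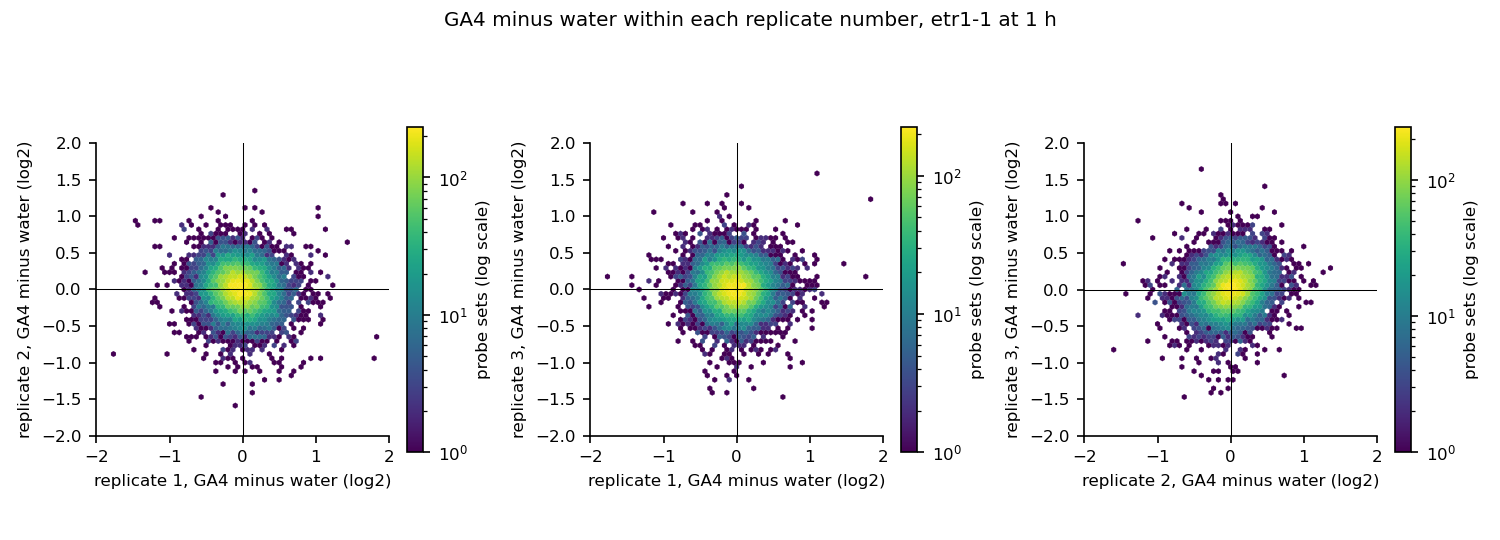
GA4 minus water (log2 of intensity + 16) within one replicate number against another, for the 15922 probe sets tested in etr1-1 at 1 h; colour gives the number of probe sets per cell on a log scale. The clouds are close to round, with Pearson correlations of -0.128, -0.055 and 0.195 from left to right.

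Of 8 features of the arrays, 3 reached the smallest p that an exact test between the sprays allows here. That test ignores the pairing, and p was not adjusted for the 8 features. The scanner background averaged 86.07, 85.43 and 84.70 units on the water arrays and 87.91, 93.63 and 109.95 on the GA4 arrays. It was higher with GA4 in all 3 pairs, and the groups did not overlap (two-sided exact permutation p = 0.1, the smallest that 3 against 3 allows). The noise measure RawQ was 3.43, 3.17 and 3.30 after water and 3.47, 3.49 and 4.02 after GA4 (exact p = 0.1). The log2 ratio of the 3' to the 5' control probe sets of actin, a sign of RNA and cDNA quality, was 2.53, 2.87 and 2.64 after water and 2.53, 2.20 and 1.68 after GA4 (exact p = 0.1). In replicate 1 this ratio was the same in both sprays at the digits shown. The ratios of GAPDH and ubiquitin showed less (exact p = 0.6 and 1.0). The average noise (exact p = 0.5), the number of outlier cells (exact p = 0.9) and the median intensity (exact p = 1.0) overlapped between the sprays. The GA4 array of replicate 3 has the word repeat in its title, which the other 5 do not, and the title prefix sets both arrays of replicate 3 apart (DV001) from those of replicates 1 and 2 (DV002). The part of these features in the gene values was not tested.

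The 8 named genes with the smallest unadjusted p among those higher in all 3 pairs had differences of 0.35 to 0.77. Over all probe sets tested the smallest unadjusted p was 0.000768 in limma. Requiring the same sign in all 3 pairs favours groups that do not overlap. The group ranges did not overlap for 388 probe sets higher (2.44%) and 466 lower (2.93%), 854 in all (5.36%). All 3 pairs had the same sign for 1982 higher (12.4%) and 2048 lower (12.9%), 4030 in all (25.3%). The locus AT1G30760 read 20.1, 16.8 and 17.5 units in the 3 water arrays and 38.1, 41.2 and 28.9 in the GA4 arrays. Every GA4 array lay above every water array, with a difference of 0.60 ± 0.16 (SE, unadjusted p = 0.00175). It was the named gene with the smallest unadjusted p among those higher in all 3 pairs, and it was dim after water, near the offset of 16 units. DFR, dihydroflavonol reductase of anthocyanin synthesis, read 28.0, 38.3 and 41.8 units after water and 69.1, 52.1 and 57.4 after GA4. The groups did not overlap, and the difference was 0.54 ± 0.16 (unadjusted p = 0.00454), with 0.95 in pair 1 and 0.33 and 0.35 in the others.

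Further loci had the same order of groups. AT3G06070 read 228.6, 272.7 and 210.8 units after water and 288.6, 400.6 and 321.8 after GA4, a difference of 0.47 ± 0.15. AT5G26010 read 56.7, 57.9 and 52.8 after water and 72.6, 82.0 and 75.7 after GA4, a difference of 0.37 ± 0.11. AT4G24140 read 36.9, 38.1 and 38.6 against 56.7, 53.0 and 48.2, a difference of 0.35 ± 0.11. In these 3 loci no array of one spray reached into the range of the other. AT2G15870, which RefSeq lists as a pseudogene, was dim in both sprays (6.6 to 11.2 units after water, 17.8 to 25.5 after GA4, difference 0.54 ± 0.17). AT3G11580 differed by 0.49 ± 0.16, with only 0.09 in pair 2. Ranked by their weakest pair, AT2G19970 (0.50), AT5G59845 (0.43), AT4G36050 (0.40) and AT5G02230 (0.39) joined AT1G30760. In AT5G02230 the 3 pairs gave 0.37, 0.42 and 0.39, yet its water arrays alone ran from 116.3 to 186.0 units and overlapped the GA4 arrays (156.8 to 253.4).

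The largest difference among the genes that were higher in all 3 pairs and ranked by p rested on 2 water arrays. TSC10B encodes a 3-ketodihydrosphinganine reductase, an enzyme of sphingolipid synthesis. It read 5.9 and 5.6 units on water replicates 1 and 2, 31.5 on water replicate 3, and 29.4, 31.5 and 35.9 on the GA4 arrays. The 16 arrays of the series other than those 2 lay between 23.9 and 44.7 units (median 33.45), so the low values stood apart from every other group, Col-0 included. The difference was 0.77 ± 0.23 (unadjusted p = 0.00563), with 1.05 and 1.14 in pairs 1 and 2 and 0.13 in pair 3. Without water replicate 3 it was 1.15 with an adjusted p of 0.0167 in limma, the only call in any setting tried. Its paralog TSC10A read 131.1, 120.0 and 132.3 units after water and 114.9, 141.9 and 138.1 after GA4, a difference of 0.03 ± 0.11 with overlapping groups.

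**Figure D2:**
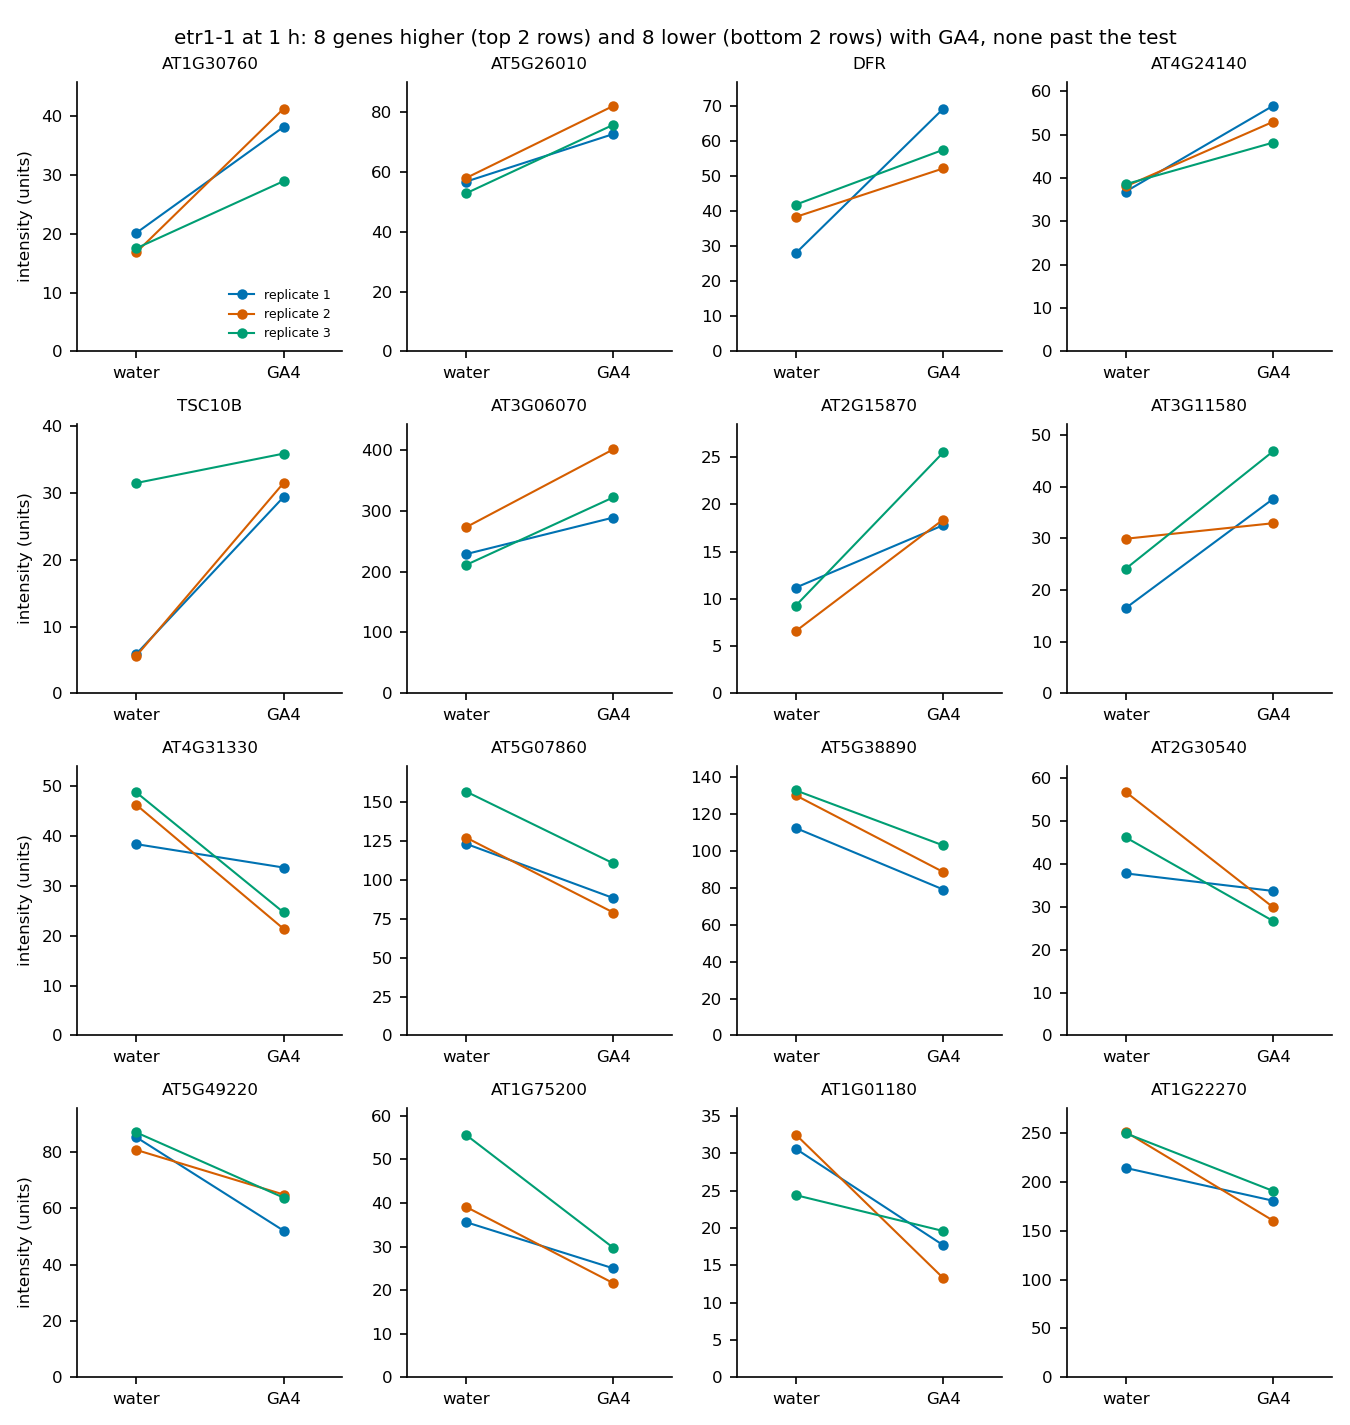
Intensity in deposited units on the 6 etr1-1 arrays at 1 h for the 8 named genes with the smallest unadjusted p in each direction among those with 3 pairs of one sign; lines join arrays of one replicate number. None passed the test, and TSC10B differs mainly in replicates 1 and 2.

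Among the named genes lower in all 3 pairs, AT4G31330 had the smallest unadjusted p. It read 38.4, 46.3 and 48.8 units after water and 33.7, 21.4 and 24.7 after GA4. The groups did not overlap, and the difference was -0.51 ± 0.14 (unadjusted p = 0.00227), with only -0.13 in pair 1. AT5G07860 was steadier over the pairs and read 123.2, 127.2 and 156.8 units after water and 88.3, 79.0 and 110.6 after GA4. Each pair was lower with GA4, by -0.42, -0.59 and -0.45, with a mean of -0.49 ± 0.13. AT5G38890 went from 112.4, 130.1 and 132.8 after water to 79.1, 88.6 and 103.0 after GA4, a difference of -0.41 ± 0.12. AT1G22270, the brightest of these loci, went from 214.0, 250.8 and 249.4 to 180.5, 160.2 and 190.5, a difference of -0.40 ± 0.12. None of these loci had overlapping groups.

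The other loci with the smallest unadjusted p among those lower in all 3 pairs were AT1G75200 (-0.51), AT1G01180 (-0.46), AT2G30540 (-0.44) and AT5G49220 (-0.40), with SEs from 0.12 to 0.155. Ranked by their weakest pair, AT1G77600 (-0.53), AT1G26410 (-0.65), AT1G10330 (-0.63) and AT2G31990 (-0.64) joined AT5G07860. AT1G77600 read 45.6, 62.6 and 44.7 units after water and 26.4, 37.4 and 27.4 after GA4, with pairs of -0.54, -0.56 and -0.48. AT2G31990 read 58.0, 63.4 and 39.4 against 30.6, 28.8 and 25.4. In both, all 3 GA4 arrays lay below all 3 water arrays. The files and reference used here give these loci no gene name, so they are reported by locus.

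Genes of gibberellin perception and DELLA signalling gave no call. Of 13 listed receptor and DELLA signalling genes, 7 were measured with a name, and 0 passed in either direction. Of these 2 lay above 0 and 5 below, with a median of -0.03, against -0.001 over all probe sets tested. The receptor gene GID1A read 102.6, 64.4 and 118.5 units after water and 102.9, 89.9 and 85.1 after GA4. The groups overlapped, and the difference was -0.004 ± 0.18, which was 0.002 with an offset of 1. GID1B read 51.4, 41.4 and 33.3 against 40.3, 46.8 and 33.1, and GID1C 34.3, 35.7 and 26.3 against 34.2, 26.7 and 32.1. Neither receptor gene differed by more than its SE (-0.05 ± 0.20 and -0.03 ± 0.12).

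SLY1, the F-box protein that recruits DELLA proteins for degradation, read 85.8, 89.9 and 108.7 units after water and 83.4, 64.8 and 96.6 after GA4. It was lower in all 3 pairs, with overlapping groups and a difference of -0.19 ± 0.13. Its relative SLY2 read 29.6, 32.5 and 27.1 against 34.1, 37.1 and 37.6, with no overlap, a difference of 0.19 ± 0.15 and an unadjusted p of 0.204. SPY and SEC are related glycosyltransferases that modify DELLA proteins. SPY differed by 0.07 ± 0.14. SEC differed by -0.22 ± 0.29, and its pairs disagreed in sign (0.30, -0.45 and -0.51). None of the 14 listed synthesis genes and none of the 11 listed inactivation genes was measured with a name. This does not mean that they were absent from the array or silent. Of the 22746 probe sets that are not controls, 8730 have no entry in the platform table of genes. A listed gene without a value here may thus have been tested without a name, or removed by the filter. The same holds for the other lists below.

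Of 11 listed genes that DELLA proteins raise, 5 were measured, and all 5 lay slightly below 0 with none passing. They had a median of -0.07 that was -0.26, 0.13 and -0.006 in pairs 1, 2 and 3. XERICO, a RING-type protein that promotes abscisic acid accumulation, read 165.3, 101.6 and 138.3 units after water and 133.2, 116.2 and 127.6 after GA4. The groups overlapped and the difference was -0.07 ± 0.18. AT5G50915 differed by -0.14 ± 0.19 and AT2G31730 by -0.07 ± 0.22, and the other 2 were GID1A and GID1B. The GASA family, small cysteine-rich proteins of which several are known to respond to gibberellin, had 4 of 14 measured. Of these 2 lay above 0, 2 below and 0 passed, with a median of -0.01. AT5G59845 read 20.2, 19.5 and 34.6 units after water and 32.0, 34.2 and 49.4 after GA4. It was higher in all 3 pairs (0.43 ± 0.23, unadjusted p = 0.0842), though water replicate 3 overlapped the GA4 arrays. With the replicate block its SE was 0.15 (unadjusted p = 0.0153, adjusted p = 0.97 in limma). AT1G22690, the brightest of the family here, read 431.6, 348.3 and 556.8 against 471.9, 323.6 and 580.0, a difference of 0.03 ± 0.30. AT2G14900 differed by -0.05 ± 0.13 and AT2G39540 by -0.13 ± 0.19.

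Cell wall genes gave no call, and 49.8% of all probe sets tested lay above 0. Expansins loosen walls, and of 20 listed 12 were measured, with 8 above 0, 4 below, 0 passing and a median of 0.10. EXPA8, an alpha-expansin, read 63.8, 33.0 and 99.7 units after water and 73.0, 47.2 and 136.0 after GA4. It was higher in all 3 pairs (0.16, 0.37 and 0.39), while the groups overlapped and the difference of 0.31 ± 0.36 was smaller than its SE. With the replicate block its SE was 0.12 and its unadjusted p 0.0204, with an adjusted p of 0.97 in limma. EXLA2, an expansin-like gene, read 50.7, 226.7 and 20.3 against 96.5, 201.0 and 39.7. Its replicates differed more than 10-fold in water alone, and its difference was 0.40 ± 0.71. The GA4 arrays had the same order of replicates. With the replicate block the SE was 0.18 (unadjusted p = 0.0429, adjusted p = 0.97 in limma).

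XTH enzymes cut and rejoin xyloglucan chains of the wall. Of 27 listed 7 were measured, 6 above 0 and 1 below, with 0 passing and a median of 0.20. That median was 0.37 and 0.29 in pairs 1 and 3 but -0.13 in pair 2. XTH18 read 325.8, 727.6 and 202.2 units after water and 507.4, 603.2 and 359.0 after GA4, a difference of 0.38 ± 0.48. XTH19 read 126.0, 201.6 and 115.3 against 255.3, 182.6 and 144.5, a difference of 0.36 ± 0.34. Both genes were higher with GA4 in replicates 1 and 3 and lower in replicate 2. With the replicate block their SEs were 0.19 and 0.23 (unadjusted p = 0.0626 and 0.137, adjusted p = 0.97 for both in limma). The mannan synthase gene CSLA03 was higher in all 3 pairs (0.36 ± 0.19, unadjusted p = 0.0832), and the pectin methylesterase gene ATPMEPCRB differed by -0.32 ± 0.39. With the replicate block their SEs were 0.11 and 0.14 (unadjusted p = 0.00473 and 0.0341, adjusted p = 0.955 and 0.97 in limma). GAUT15, a galacturonosyltransferase gene of pectin synthesis, differed by 0.13 ± 0.19.

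**Figure D3:**
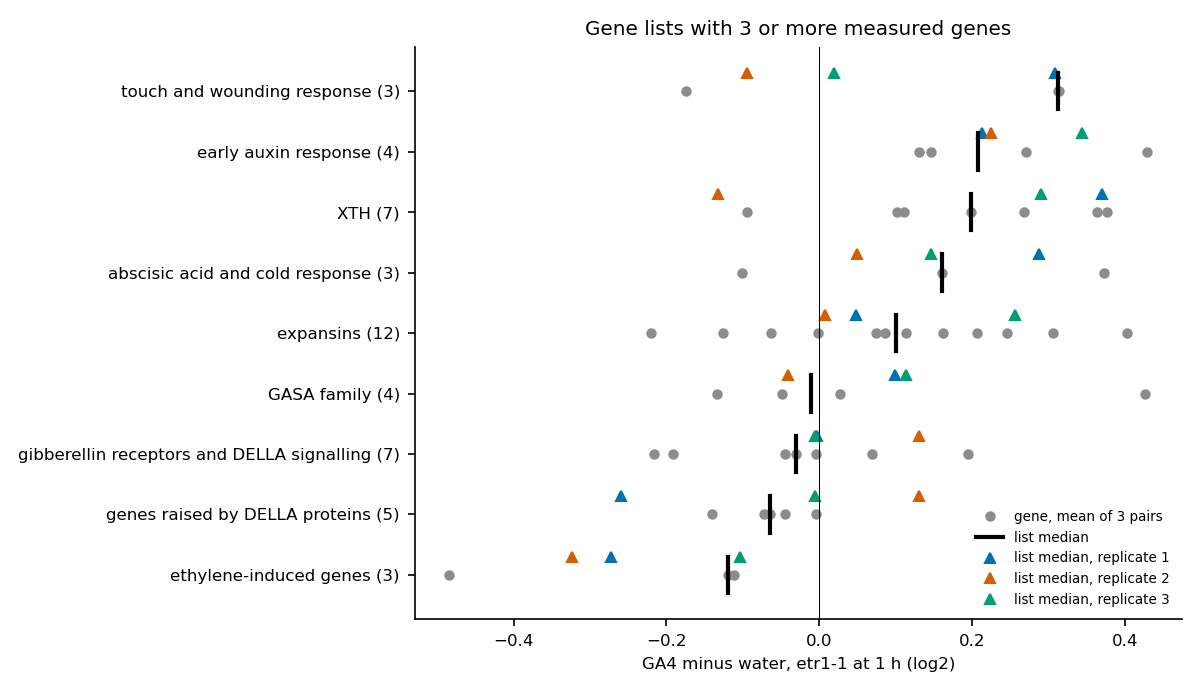
GA4 minus water (log2 of intensity + 16) in etr1-1 at 1 h for the 9 gene lists with 3 or more measured genes; grey points are genes, black bars list medians and coloured triangles the median within one replicate number. The XTH median is 0.198 over the pairs and -0.132 in replicate 2.

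Ethylene genes gave no call. EIN3, the transcription factor at the end of the ethylene pathway, read 424.3, 291.1 and 255.2 units after water and 347.7, 341.4 and 270.9 after GA4. The difference was 0.01 ± 0.17, with overlapping groups. RTE1, a membrane protein that promotes the function of the ETR1 receptor, read 64.0, 51.6 and 47.2 against 50.2, 38.0 and 58.7, a difference of -0.12 ± 0.14. Of 17 listed ethylene-induced genes, 3 were measured (RTE1, ARL and PDF1.2b), all below 0 and none passing, with a median of -0.12. ARL, a relative of ARGOS with a role in cell expansion, read 58.5, 54.6 and 57.6 units after water and 44.5, 58.0 and 52.5 after GA4. The difference was -0.11 ± 0.19, at levels well under the 211.3 to 416.7 units of the Col-0 arrays at 1 h. The defensin gene PDF1.2b read 21.3, 48.2 and 47.5 against 22.7, 21.1 and 22.7, a difference of -0.48 ± 0.31 carried by pairs 2 and 3. With the replicate block its SE was 0.22 (unadjusted p = 0.0424, adjusted p = 0.97 in limma). Its probe set is of a type that can also match related transcripts.

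Early auxin response genes all lay above 0 in the mean, with 4 of 14 measured, 0 passing and a median of 0.21. Only 1 of the 4, WES1, was higher in all 3 pairs. The GH3 enzymes conjugate auxin to amino acids. WES1, of that family, read 92.6, 78.2 and 90.8 units after water and 105.1, 95.8 and 125.9 after GA4. The groups did not overlap, with a difference of 0.27 ± 0.15 and an unadjusted p of 0.0881. With the replicate block its SE was 0.11 (unadjusted p = 0.023, adjusted p = 0.97 in limma). GH3.3 read 35.8, 42.1 and 64.2 against 100.2, 50.9 and 59.8, and its difference of 0.43 ± 0.21 came mostly from pair 1 (1.17, against 0.20 and -0.08). GH3.17 differed by 0.15 ± 0.14 (-0.09 in pair 1), and IAA29, an Aux/IAA repressor of auxin signalling, by 0.13 ± 0.25 (-0.315 in pair 2).

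Genes known to respond to touch, wounding or cold gave no call. STZ, a zinc finger repressor of stress responses, read 145.2, 237.1 and 92.2 units after water and 183.6, 322.4 and 109.4 after GA4. It was higher in all 3 pairs, and its difference of 0.31 ± 0.37 was smaller than its SE in the fit without the block. With the replicate block its SE was 0.13 and its unadjusted p 0.0317, with an adjusted p of 0.97 in limma. CML38, a calmodulin-like protein, read 56.1, 162.8 and 50.8 against 130.0, 151.4 and 51.7, so that its difference of 0.31 ± 0.52 came from pair 1 alone. WRKY53, a senescence and stress factor, differed by -0.17 ± 0.15. The chloroplast cold protein gene COR15A read 297.7, 936.0 and 184.9 against 515.3, 918.3 and 246.0, a difference of 0.37 ± 0.86. Replicate 2 was the highest in both sprays for STZ, CML38 and COR15A. The dehydrin gene COR47 differed by 0.16 ± 0.29 and COR27 by -0.10 ± 0.52. With the replicate block the SEs of COR15A, COR47 and COR27 were 0.265, 0.092 and 0.113 (unadjusted p = 0.183, 0.102 and 0.386 in limma).

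Single genes of other pathways gave values near 0. The anthocyanin glycosyltransferase gene UF3GT read 23.2, 46.4 and 31.3 units after water and 41.3, 27.1 and 28.0 after GA4, and its difference of -0.03 ± 0.19 did not follow that of DFR. The clock gene GI differed by 0.06 ± 0.18 and SIM, a cell cycle inhibitor of trichomes, by -0.15 ± 0.16. The green shoot markers LHCB4.1 (3033.7 to 3530.1 units) and RCA (2464.2 to 2970.0) were bright on all 6 arrays. The 1 root marker measured, EXPA7 of root hairs, lay between 40.7 and 73.3 units, and no flower marker was measured with a name. These 3 markers differed by 0.12 ± 0.11, 0.03 ± 0.14 and 0.09 ± 0.22.

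Gene families read from symbols gave 0 calls as well. Counts below are of the tested genes whose symbol or synonym matched, not of whole families. Of 28 UDP-glycosyltransferase genes 13 lay above 0 and 15 below. UGT76C2, which glucosylates cytokinins, was at -0.49 ± 0.25 (-0.88, -0.60 and 0.00 in the pairs) and UGT85A4 at -0.30 ± 0.19. With the replicate block their SEs were 0.195 and 0.124 (unadjusted p = 0.0245 and 0.0289, adjusted p = 0.97 for both in limma). The 13 cytochrome P450 genes matched, most of them CYP71B genes, split into 6 above and 7 below. CYP71B35 was at 0.37 ± 0.26 (0.96, 0.49 and -0.35 in the pairs) and CYP71B34 at -0.27 ± 0.16. With the replicate block their SEs were 0.226 and 0.109 (unadjusted p = 0.129 and 0.029, adjusted p = 0.97 for both in limma). Thioredoxins and glutaredoxins had 2 above 0 and 8 below, but within a narrow range from -0.16 to 0.06, with TY1 and TO2 the lowest. Of 7 peroxidase genes 5 lay above 0. Among them AT2G41480 read 68.3, 80.0 and 80.7 units after water and 105.7, 86.5 and 105.2 after GA4, with no overlap (0.32 ± 0.12, unadjusted p = 0.0174), and Prx37 was at 0.30 ± 0.18. The bHLH factors had 2 above and 4 below, with the iron-deficiency factor BHLH101 at -0.53 ± 0.32, mostly from pair 1 (-1.25, against -0.20 and -0.14), and bHLH34 at -0.22 ± 0.16. The 6 WRKY factors were evenly split, with WRKY20 at 0.24 ± 0.16 and WRKY47 at -0.21 ± 0.15. LHCB4.2, a chlorophyll-binding antenna protein, was at 0.20 ± 0.14 and LHCB4.3 at -0.18 ± 0.16. With the replicate block their SEs were 0.081 and 0.158 (unadjusted p = 0.0306 and 0.276, adjusted p = 0.97 and 0.975 in limma).

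The same spray in Col-0 likewise gave 0 calls (0%), with 97 probe sets at an unadjusted p under 0.05 (0.609%). The difference between the 2 responses was tested as an interaction over the 12 arrays, and 0 passed (0%), with 111 at an unadjusted p under 0.05 (0.697%). With the replicate block 0 passed and 335 (2.1%) had an unadjusted p under 0.05. Probe sets of one sign in all 3 etr1-1 pairs and of the opposite sign in all 3 Col-0 pairs numbered 131 (etr1-1 higher) and 219 (etr1-1 lower), 2.2% of those tested. The same sign in all 6 pairs was seen for 326 higher and 343 lower (4.2%).

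AT4G31330 had the smallest unadjusted p for the difference between the lines. In Col-0 it read 26.9, 28.5 and 28.1 units after water and 37.5, 50.5 and 45.9 after GA4, without overlap and in the direction opposite to etr1-1. The Col-0 difference was 0.46 ± 0.14, and etr1-1 minus Col-0 came to -0.98 ± 0.19 (unadjusted p = 0.000202, adjusted p = 1 in limma, and 1 also with the replicate block). AT4G38050 read 63.7, 61.6 and 67.1 in etr1-1 after water and 44.0, 53.7 and 49.0 after GA4, and 38.6, 46.3 and 42.0 against 61.2, 52.3 and 53.4 in Col-0. Its groups were thus apart in both lines, in opposite directions (-0.31 ± 0.11 and 0.30 ± 0.11). The other loci with the smallest p were AT3G18295 and AT5G07860, lower with GA4 in etr1-1, and AT2G15870, AT5G26010, AT2G19970 and AT1G55930, higher in it. Their differences between the lines ran from -0.62 to 0.90 with unadjusted p from 0.0058 to 0.0114. AT2G19970 read 19.0, 32.4 and 27.2 units in Col-0 after water and 8.9, 28.4 and 12.7 after GA4. AT1G55930 differed by 0.32 ± 0.16 in etr1-1 and by -0.33 ± 0.16 in Col-0. None of these passed after adjustment.

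**Figure D4:**
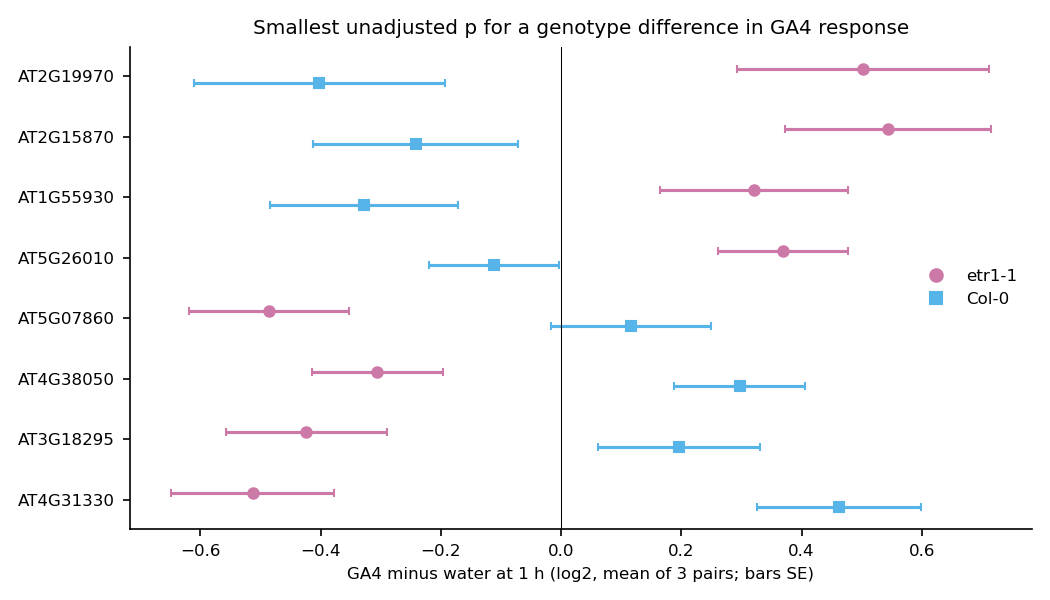
GA4 minus water at 1 h (log2 of intensity + 16, mean of 3 pairs, bars SE) in etr1-1 (circles) and Col-0 (squares) for the 4 named genes per direction with the smallest unadjusted p for the difference between lines. Signs are opposite in the lines for all 8, which the choice of genes favours, and none passed.

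The single etr1-1 arrays at other times set the size of these differences beside the course over hours, with no test. All 3 carry the title prefix DV001, which at 1 h only the arrays of replicate 3 have, so time and prefix cannot be told apart against replicates 1 and 2. DFR read 66.7 units at 0 h after water, 44.1 at 30 min after GA4 and 35.6 at 3 h after GA4. The 0 h value lay within the range of the GA4 arrays at 1 h (52.1 to 69.1), and the 3 h value within the water range (28.0 to 41.8). AT3G06070 read 117.9 at 0 h, 224.5 at 30 min and 95.0 at 3 h, below all 6 arrays at 1 h at both 0 h and 3 h. XTH18 read 92.2, 280.4 and 44.8, also below the arrays at 1 h at 0 h and 3 h. AT4G31330 read 50.0, 41.5 and 53.2, all above the GA4 arrays at 1 h (21.4 to 33.7). EXPA8 read 223.3, 130.0 and 149.6, above all arrays at 1 h at 0 h and 3 h, and at 30 min below the GA4 array of replicate 3 alone. STZ read 57.5, 448.1 and 61.5, with the 30 min value above all arrays at 1 h.

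**Figure D5:**
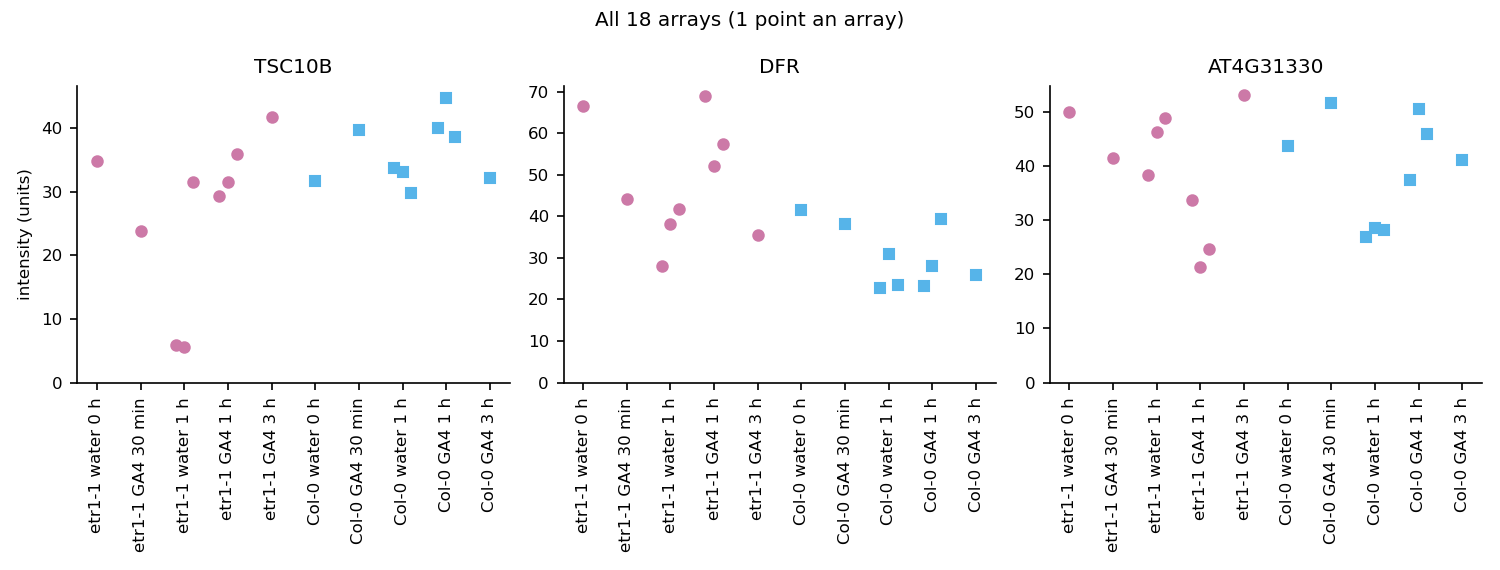
Intensity in deposited units on all 18 arrays, 1 point each, for TSC10B, DFR and AT4G31330 by genotype, spray and time. For TSC10B the etr1-1 water arrays of replicates 1 and 2 (5.9 and 5.6 units) lie below all others.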

How the data were processed

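Biotin-labelled cRNA of whole plants was hybridised to ATH1 arrays. The authors deposited 1 intensity for each probe set; the labels do not name the software behind it. Each of the 6 arrays had a mean of 100.007 to 100.008 after trimming 2% at each end, a median of 45.3 to 48.8 and a highest value of 3921.0 to 4475.0, so a common scaling had been applied before deposit. Of the 22746 probe sets that are not controls, 15922 lay above the 30th percentile of mean log2(intensity + 16) and were tested, and 8767 of these name 1 gene in the platform table, updated to RefSeq (TAIR10.1) where it matched (13436 of 13513).

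All 12 arrays at 1 h entered 1 fit in limma 3.58.1 (lmFit, eBayes with an intensity trend; R 4.3.3) with 1 term per genotype and spray and no block, and Benjamini-Hochberg adjustment over all tested probe sets. Values of single arrays were compared by exact permutation tests in scipy 1.17.1. The code was tested on simulated data. Replicate numbers, from the labels' source names, were used to pair the arrays. Deviations from group means correlated at 0.127 to 0.700 in all 18 pairs of arrays with the same number, and at 0.234 to 0.626 in the 3 etr1-1 pairs. In the 36 pairs with different numbers they correlated at -0.518 to 0.195, so the ranges overlapped in part. Deviations within a group cancel out, which draws the values for different numbers downward.

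Named genes follow a rule: those passing with groups apart; as none passed, the 8 per direction with the smallest unadjusted p and 3 pairs of one sign; the 5 per direction with the largest weakest pair; the 2 largest of each list or family; a fixed set of gibberellin and ethylene genes; and the 4 per direction with the smallest interaction p. Other members of lists with 5 or fewer measured genes are named too, chosen after their values were seen. Of 254 listed genes in 22 lists, 55 were measured with a name, and 6 lists had none. For the others, lack of a name and removal by the filter were not told apart. The 20 families were matched on symbols and synonyms. The comparison, lists and rule were chosen with earlier results of these data known. Alternatives were the replicate number or title prefix as a block, the 6 arrays alone, quantile normalization, an offset of 1, no trend, no filter, an adjusted p of 0.10, and leaving out arrays or replicate numbers.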

Additional observations from a re-analysis of the deposited data

How the results depend on the processing

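Counts of probe sets passing in etr1-1, and in the difference from Col-0, stayed at 0 in 53 of the 54 counts under all alternatives. The exception was 1 probe set higher (range 0 to 1 over the fits leaving out arrays), TSC10B, without water replicate 3, with 2 water arrays left. The number at an unadjusted p under 0.05, 290, was 763 with the replicate block, 825 with that block in the 6 arrays alone, 541 with the title prefix as a block, 604 with no filter, 518 without water replicate 1 and 188 without replicate 2, so it depends on these settings and the cause was not tested. With the replicate block no call was gained or lost. For 30 of the 89 genes named, leaving out arrays turned the sign, and the largest difference of these was 0.497 in size; the ranges of the log2 difference were TSC10B 0.58 to 1.15 (no change of sign), SEC -0.51 to 0.067, AT5G50915 -0.26 to 0.002, XERICO -0.24 to 0.071, AT2G39540 -0.28 to 0.075, EXLA2 -0.20 to 1.17, EXPA8 -0.034 to 0.60, XTH18 -0.025 to 0.86, EIN3 -0.14 to 0.21, RTE1 -0.30 to 0.008, CML38 -0.038 to 0.77, STZ -0.052 to 0.66, UF3GT -0.32 to 0.22, GI -0.099 to 0.21, COR15A -0.11 to 1.01, COR47 -0.093 to 0.42, TSC10A -0.056 to 0.14, EXPA7 -0.12 to 0.28, RCA -0.038 to 0.096, ATPMEPCRB -0.58 to 0.054, LHCB4.3 -0.32 to 0.024, GID1A -0.22 to 0.20, GID1B -0.16 to 0.069, GID1C -0.14 to 0.091, AT1G22690 -0.16 to 0.25, rpl36 -1.06 to 0.081, ndhF -0.20 to 1.05, COR27 -0.49 to 0.34, IAA29 -0.11 to 0.43, AT2G31730 -0.21 to 0.093 and AT2G14900 -0.14 to 0.086. The fits leaving out arrays had no block, and leaving out a single array breaks a pair, so that the level of a replicate number enters the difference. EXPA8, STZ, COR47 and ndhF were higher in all 3 pairs, so only fits with a broken pair turned their sign. Of the 59 genes that kept their sign, 32 moved by over 1.5 times when arrays were left out, among them BHLH101 (-0.95 to -0.17), CYP71B35 (0.07 to 0.72), XTH19 (0.079 to 0.61) and UGT76C2 (-0.74 to -0.22). Under the 8 alternatives that keep all 6 etr1-1 arrays only GID1A turned its sign (0.002 with an offset of 1). The pair of replicate 3 alone, with no test, lay further from the mean of the pairs than their SD for 22 genes. Dim genes such as TSC10B and AT1G30760 are limited by the offset and by signal near background.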

Other observations

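Plastid-encoded genes are a group chosen after values were seen. Of 69 tested with a name, 24 lay above 0, 5 were higher and 16 lower in all 3 pairs and 0 passed, with a median of -0.08 that was -0.24, -0.09 and 0.06 in pairs 1, 2 and 3. Over all probe sets tested, 49.8% lay above 0, and 12.4% were higher and 12.9% lower in all 3 pairs. The group was not tested as a set. The photosystem II gene psbN read 22.3, 28.7 and 43.0 units after water and 51.6, 38.2 and 93.5 after GA4, a difference of 0.66 ± 0.35 that was higher in all 3 pairs. Its unadjusted p was 0.000345 with the replicate block, with an adjusted p of 0.955 in limma. The cytochrome complex gene petL read 568.3, 826.6 and 1014.4 against 359.0, 585.1 and 815.5, lower in all 3 pairs at -0.48 ± 0.28. With the replicate block its SE was 0.21 (unadjusted p = 0.042, adjusted p = 0.97 in limma). The ribosomal protein gene rpl36 (-0.50 ± 0.42) and the NADH dehydrogenase gene ndhF (0.38 ± 0.68) differed in sign.

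Of the named probe sets, 4 differed by more than 0.7 on the log2 scale, and they were chosen after their values were seen. Besides TSC10B, AT3G02480 read 42.8, 264.9 and 83.8 units after water and 39.0, 75.4 and 39.6 after GA4 (-0.85 ± 0.67), so that water replicate 2 set most of its difference. AT2G18900 read 52.8, 44.4 and 48.1 against 4.1, 17.0 and 56.3 (-0.83 ± 0.33), with GA4 replicate 3 above all water arrays. AT1G10980 read 3.2, 18.5 and 4.3 against 53.3, 5.8 and 30.9 (0.80 ± 0.34), with GA4 replicate 2 below water replicate 2. Each of these 3 rested on part of the pairs.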
